A study of Rattus norvegicus with 59 samples.

Results

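INS-1E cells kept in high glucose and given drugs were compared with INS-1E cells kept in normal glucose, by RNA sequencing of 39 of the 59 libraries of the study. INS-1E is a clonal line from a rat insulinoma, whose cells release insulin when glucose rises. The NG group holds 20 libraries of cells cultured for 72 h at 11.1 mM glucose. The HG + drugs group holds 19 libraries of cells cultured for the same 72 h at 20 mM glucose. For the final 48 h, but not the first 24 h, their medium also held exendin-4 at 50 nM together with metformin and sodium salicylate, each at 250 μM. Members were taken by their labels, HG + drugs replicate 16 is not analysed here, and the remaining 20 libraries are of cells cultured at 20 mM without drugs (HG). The HG libraries entered the estimate of the spread and are quoted where a level with drugs is set beside both other groups. NG and HG + drugs differ in both glucose and drugs. The 3 drugs were never given separately, so their parts in a difference cannot be told apart. No animal or primary tissue was used, the line is a single tumor-derived clone, and 11.1 mM is the usual glucose level in its medium.

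Glucose that enters a β-cell is phosphorylated and burned, which closes potassium channels, lets calcium in and releases insulin granules. Part of the sugar phosphate activates ChREBP, a transcription factor that switches on genes of glycolysis and fat synthesis. Exendin-4 acts on the GLP-1 receptor and raises cyclic AMP, metformin inhibits complex I of the respiratory chain and activates the energy sensor AMPK, and salicylate blocks the kinase that activates NF-κB.

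Values are FPKM, fragments scaled by transcript length and library total. The low values gave a depth of 6.93 to 9.49 M reads in NG and 7.64 to 9.74 M reads in HG + drugs, so that 1 FPKM of a transcript of median length is 16.3 reads. Replicates are described as independent experiments. The β-cell identity of the line was visible in both groups, as Ins1, Iapp, Slc30a8, Slc2a2, Pdx1 and Nkx6-1 had at least 7.05 FPKM in all 39 libraries. Of 24 markers of other cell types, only Gcg, the glucagon gene, and Ghrl, the ghrelin gene, reached a mean of 1 FPKM in either group, and Cpb1, Pnlip, Dcn and Lum were at 0 in all 39 libraries. The summed level of the 24 markers, nearly all of it Gcg, was 382 to 1708 FPKM in NG and 436 to 1839 FPKM in HG + drugs, and neither Gcg nor Ghrl passed the test between groups (adjusted p = 0.11 and 0.40 from limma). In bulk samples like these, fewer cells expressing a gene and less of its RNA per cell cannot be told apart. HG + drugs library 1 stood apart, since in 536 of the 2910 transcripts that changed (18.4%, against 5.26% for an equal share) it lay nearest to NG of the 19 drug libraries. For some genes in which it lay farthest out, the value without it is given too, an exclusion chosen after the data were seen. As library 1 was picked for lying nearest to NG, leaving it out tends to enlarge a difference and is no separate support for it. Drug libraries 13, 17 and 3 lay farthest from NG most often, in 11.0%, 10.2% and 9.90% of the 2910 transcripts.

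At an adjusted p under 0.05 from limma with Benjamini-Hochberg adjustment, 2910 of 10660 transcripts (27.3%) differed between HG + drugs and NG. Of these, 1353 (12.7%) were raised and 1557 (14.6%) were lowered. The test did not pair libraries by replicate number, and with that number as a term in the fit 4103 transcripts were called. Most changes were small. Their median size was 0.16 as a log2 fold change of FPKM + 1, a scale on which the change of a low transcript comes out too small. A change over 0.5 was found in 91 raised and 40 lowered transcripts and a change over 1 in 11 raised and 5 lowered ones. The labels name no batch, so the libraries were divided into 4 sets of 15 consecutive sample numbers, and 1302 of the 1353 raised and 1472 of the 1557 lowered transcripts had the same sign in all 4 sets, which is a description, as they were called on these same libraries. HG + drugs was also set against HG, with 8.66% of transcripts called, and HG against NG, with 40.1% called, and each pair of comparisons shares libraries. Among the raised transcripts, 232 were lower with drugs than in HG and for 1093 no difference from HG was called. Among the lowered ones, 154 were higher with drugs than in HG and for 1359 none was called.

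**Figure D1:**
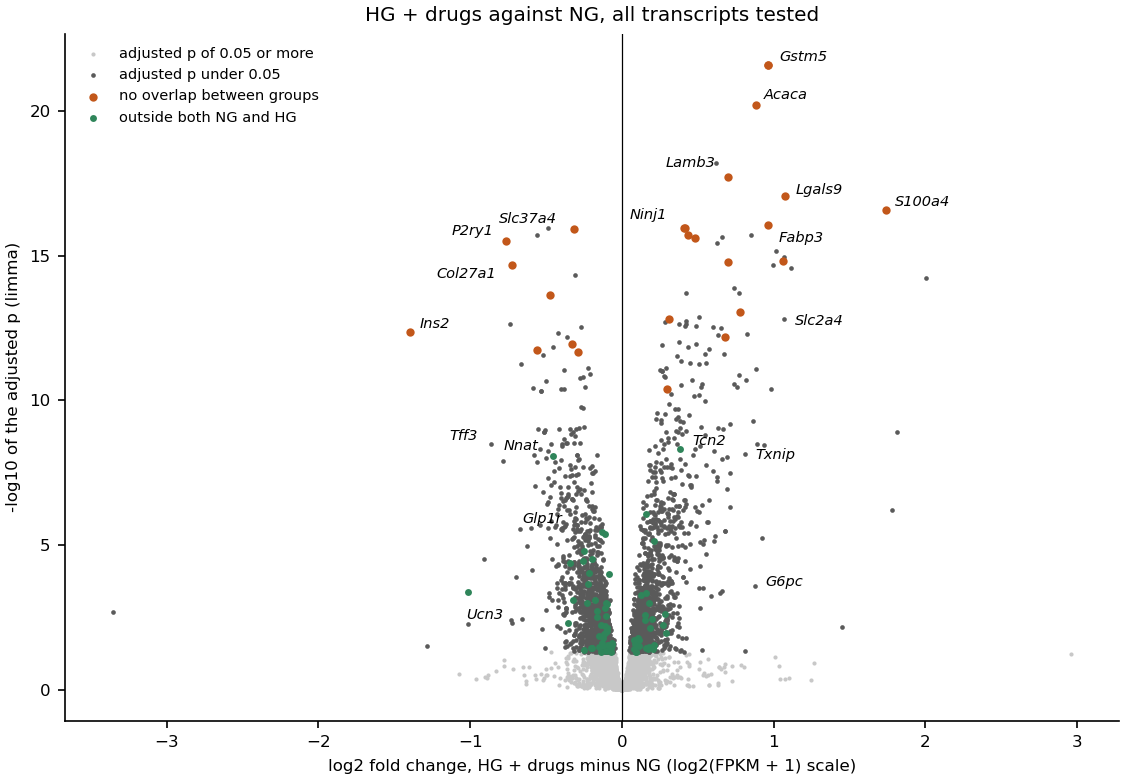
Log2 fold change of HG + drugs against NG (x axis, log2(FPKM + 1) scale) and -log10 of the adjusted p from limma (y axis) for 10660 transcripts. Orange points are the 25 transcripts whose libraries do not overlap between the groups, with Gstm5 and Acaca at the top right and Ins2 at the far left among them, and green points are the 72 transcripts at a level outside both NG and HG.

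In 25 transcripts (0.235% of those tested) every library with drugs lay on the same side of all 20 NG libraries, 17 higher (0.159%) and 8 lower (0.075%). The 17 belong to 16 genes, S100a4, Lgals9, Mug1, Fabp3, Gstm5, Acaca, Spp2, Lamb3, Rgs10, A1i3, Fbxo23, Litaf, Tkt, Ninj1, Bckdk and Magi3. S100a4, which encodes a calcium-binding protein of motile cells, had 2.15, 4.67 and 6.83 FPKM (lowest, median and highest library) in NG and 9.36, 15.5 and 29.3 FPKM in HG + drugs. Its lowest library with drugs was above its highest in NG, and its log2 fold change was 1.74 (SE 0.12, adjusted p = 2.5e-17 from limma). Lgals9, which encodes the secreted lectin galectin-9, had 2.38, 3.24 and 4.87 FPKM in NG and 5.68, 8.04 and 11.3 FPKM with drugs (log2 fold change 1.07, SE 0.08). Fabp3, a carrier of fatty acids in the cytosol, had 23.5, 29.0 and 41.8 FPKM in NG and 44.9, 59.4 and 82.5 FPKM in HG + drugs (0.97, SE 0.07). The laminin chain gene Lamb3 had 11.8 to 16.6 FPKM in NG and 18.4 to 27.4 FPKM in HG + drugs (0.70, SE 0.05), and Rgs10, a brake on G protein signalling, had 12.3 to 22.0 FPKM and 22.2 to 34.9 FPKM (0.70, SE 0.06). Bckdk, the kinase that restrains breakdown of branched-chain amino acids, separated with a small change, from 39.9 to 48.1 FPKM in NG to 49.7 to 60.9 FPKM in HG + drugs (0.31, SE 0.03). Mug1 and A1i3 rose by log2 fold changes of 1.06 and 0.68, and as these genes of secreted protease inhibitors are closely alike in sequence, reads can be divided between them. In all 16 genes the mean in HG was above the mean with drugs. Without HG + drugs library 1, 37 transcripts were wholly higher.

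The 8 transcripts that were wholly lower belong to Ins2, P2ry1, Col27a1, Kcnh3, Nbl1, Slc11a2, Slc37a4 and Bai2. P2ry1, a receptor for extracellular ADP, had 21.3, 23.8 and 27.5 FPKM in NG and 8.58, 14.7 and 19.5 FPKM with drugs (-0.76, SE 0.06, adjusted p = 3.1e-16 from limma). Col27a1, a fibrillar collagen gene, had 4.72, 6.42 and 8.38 FPKM in NG and 2.66, 3.59 and 4.51 FPKM with drugs (-0.73, SE 0.06). Kcnh3, a voltage-gated potassium channel gene, had 2.86 to 4.83 FPKM in NG and 1.55 to 2.82 FPKM with drugs (-0.56, SE 0.06). All the drug libraries of these genes lay below the lowest NG library, for Kcnh3 by a narrow margin. Slc37a4, the transporter that brings glucose-6-phosphate into the endoplasmic reticulum, went from 36.5 to 43.2 FPKM in NG to 27.5 to 34.5 FPKM with drugs (-0.32, SE 0.02), and the iron transporter gene Slc11a2 from 18.2 to 24.3 FPKM to 15.0 to 18.0 FPKM (-0.33, SE 0.03). Nbl1, an antagonist of bone morphogenetic proteins, changed by -0.47 (SE 0.04) and the adhesion receptor gene Bai2 by -0.29 (SE 0.03). Without HG + drugs library 1, 11 transcripts were wholly lower, among them Glud1.

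**Figure D2:**
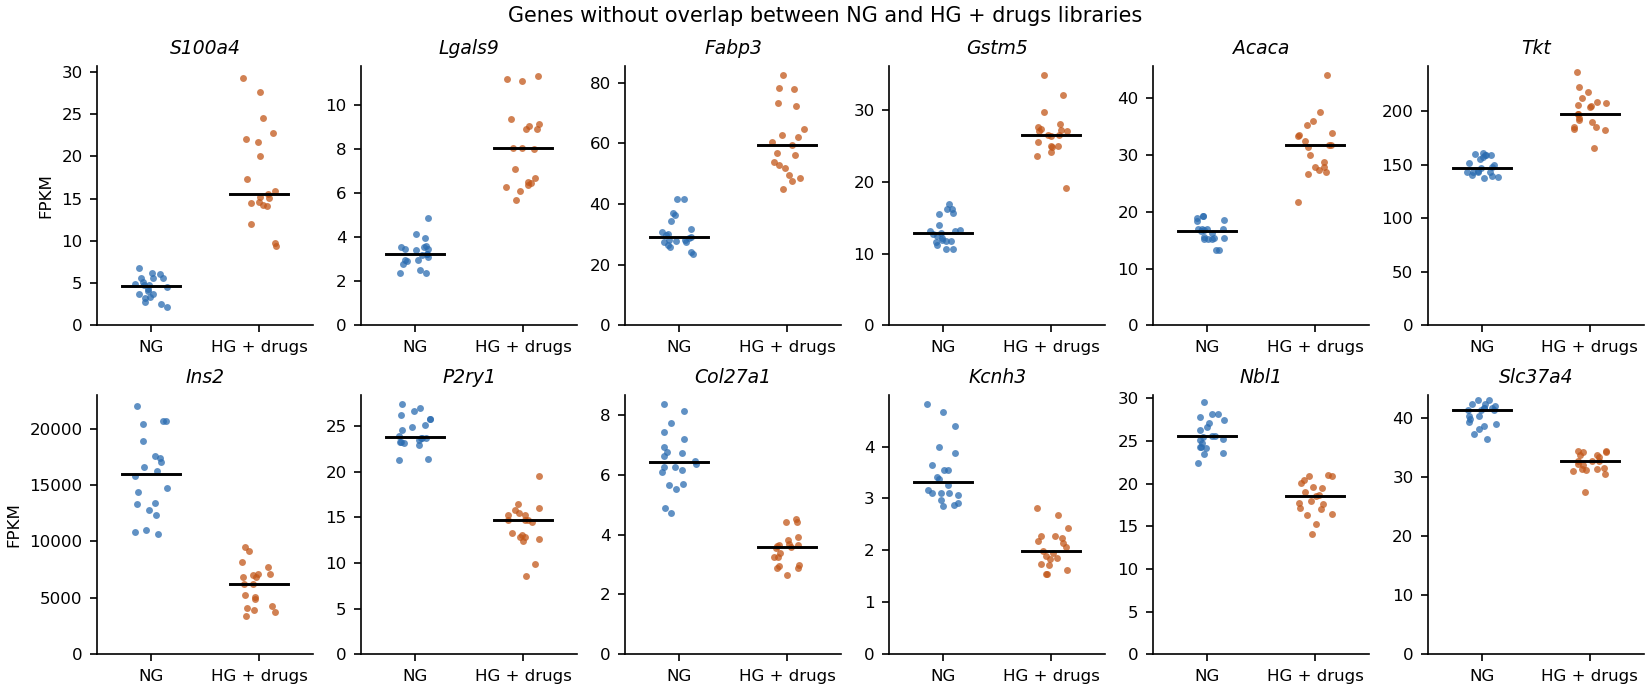
FPKM (y axes, linear and from 0) of 6 genes higher and 6 genes lower with drugs, one point per library, with 20 NG libraries in blue, 19 HG + drugs libraries in orange and a black line at each median. In each panel the highest point of the lower group lies under the lowest point of the other, as for Acaca with 19.3 FPKM at most in NG and 21.8 FPKM at least with drugs.

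Large changes were also found in genes whose groups overlapped. Prok2, a secreted peptide of the prokineticin family, was higher with drugs by log2 fold changes of 1.81 and 1.78 in its 2 entries and by 1.73 (SE 0.15) when these were summed. Slc2a4, the insulin-responsive glucose transporter GLUT4, had 1.43, 2.00 and 3.06 FPKM in NG and 1.32, 5.31 and 9.51 FPKM in HG + drugs (1.07, SE 0.10). Its lowest drug library was number 1, without which its groups did not overlap (1.15), and the same held for the potassium channel subunit gene Kcnab3 (4.02, 13.1 and 18.2 FPKM with drugs against 3.47, 5.19 and 7.51 FPKM in NG, 1.11, SE 0.09, and 1.19 without library 1). Il17rb, a receptor subunit for interleukins, went from 3.70, 5.46 and 9.83 FPKM to 9.11, 12.7 and 19.2 FPKM (1.07, SE 0.09), so that only the extremes of its groups met. Among the 10 largest falls of transcripts of at least 300 bases, Tff3, a trefoil peptide of secretory epithelia, had 181, 285 and 418 FPKM in NG and 91.3, 161 and 251 FPKM in HG + drugs (-0.86, SE 0.11, adjusted p = 3.3e-09 from limma) and was below the NG median in 19 of 19 drug libraries. Dleu7 (-0.79, SE 0.10) and Rai2 (-0.74, SE 0.07) were also below it in 19 of 19.

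Some of the largest changes belong to single isoform entries, between which shared reads are divided by estimation. One of the 4 Gnas entries rose from a mean of 135 FPKM to 274 FPKM (log2 fold change 1.45, SE 0.42), with libraries between 0.0404 and 283 FPKM in NG, whereas the summed Gnas level was 4753 FPKM in NG and 4658 FPKM with drugs (-0.03, adjusted p = 0.61 from limma). Entries of Igf2 (-1.28), Bles03 (-1.01), Tceb1 (-1.01) and Ndrg4 (-0.73) were among the 10 largest falls. Summed over the entries of each symbol, Igf2 was lowered by -0.09 (adjusted p = 0.0093 from limma), while Bles03 (-0.04), Tceb1 (0.05) and Ndrg4 (0.04) were not called.

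The insulin genes separated from each other. Ins2 had 10691, 16026 and 22060 FPKM (lowest, median and highest) in NG and 3421, 6261 and 9507 FPKM in HG + drugs. The groups did not overlap, and Ins2 changed by -1.40 on the log2 scale (SE 0.13, adjusted p = 4.4e-13 from limma). Ins1, the more abundant of the 2, had 53963, 65525 and 87186 FPKM in NG and 46110, 60906 and 85228 FPKM in HG + drugs, which overlapped widely (-0.20, SE 0.08, adjusted p = 0.054). The ratio of Ins2 to Ins1, which does not depend on the library total, was 0.227 ± 0.0215 (SD, n = 20) in NG and 0.0997 ± 0.0158 (SD, n = 19) in HG + drugs. The lowest NG library had a ratio of 0.176 and the highest drug library 0.135, and the mean log2 ratio differed by -1.20 (two-sided permutation test, p = 1e-05, the smallest that 100000 resamples can give; 2e-05 adjusted over 2 measures). In HG the ratio was 0.0885 ± 0.0138 (SD, n = 20). Both genes together held 14.1% ± 1.87 of the summed FPKM in NG and 11.1% ± 1.95 in HG + drugs (two-sided permutation test, p = 9.0e-05), and 18 of 19 drug libraries lay below the NG median. Ins1 and Ins2 are similar in sequence, so reads can be divided between them.

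**Figure D3:**
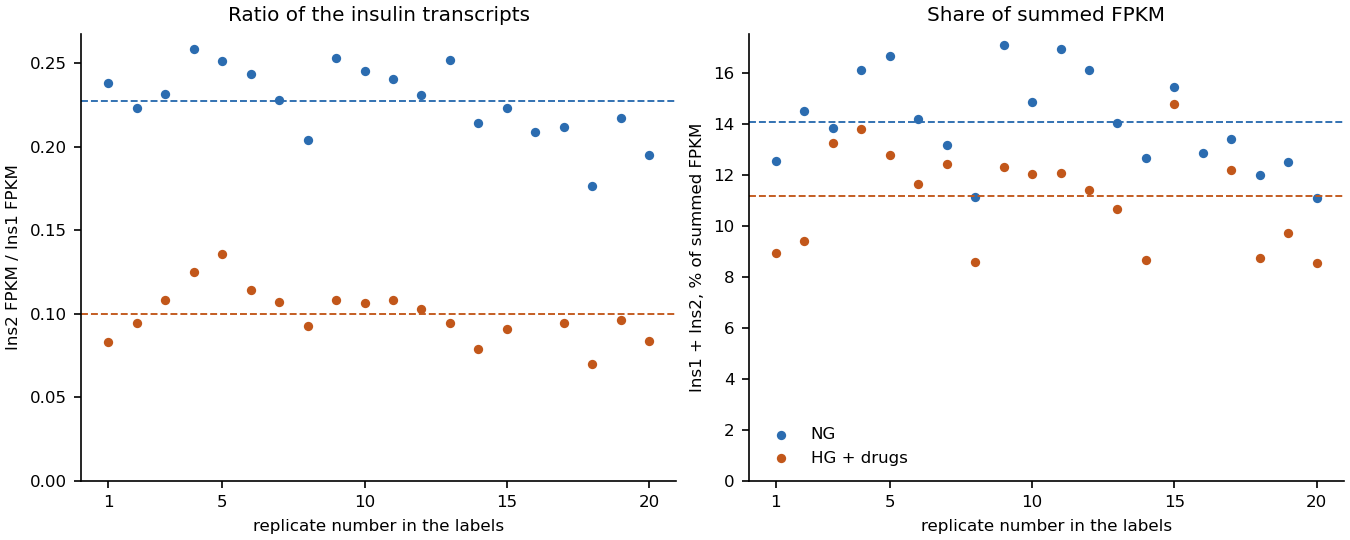
Ratio of Ins2 to Ins1 FPKM (left) and share of both in the summed FPKM (right) by replicate number, with a point per library, NG in blue, HG + drugs in orange and dashed lines at the group means. The ratios lie between 0.176 and 0.258 in NG and between 0.0702 and 0.135 with drugs, without overlap, whereas the shares of the groups overlap between 11.1% and 14.8%.

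Genes were then grouped in 25 lists by function, and for each list the members past the test are counted beside 12.7% raised and 14.6% lowered among all transcripts, whose median log2 fold change was -0.01. Of 23 measured genes of insulin and granule cargo, 4 were raised and 12 lowered, with a median of -0.13. Npy, a peptide that restrains insulin release, had 277, 352 and 421 FPKM in NG and 177, 235 and 325 FPKM in HG + drugs (-0.54, SE 0.06, adjusted p = 4.6e-11 from limma, 2 identical entries). Slc30a8, the zinc transporter of insulin granules, had 737, 835 and 916 FPKM in NG and 630, 705 and 825 FPKM with drugs (-0.24, SE 0.03), and Pcsk2, a protease that cuts proinsulin, had 691, 772 and 907 FPKM and 526, 655 and 761 FPKM (-0.28, SE 0.04). Each of the 3 was below its NG median in 19 of 19 drug libraries, with some overlap. Ucn3, a peptide of mature β-cells, had 1.79, 4.88 and 8.89 FPKM in NG and 0, 2.10 and 12.8 FPKM with drugs (-0.72, SE 0.20, adjusted p = 0.0050), where the highest value was that of library 1, without which the change was -0.84. Iapp, the amyloid peptide secreted with insulin, changed by -0.26 (SE 0.05) but by 0.01 after quantile normalization (adjusted p = 0.95). The raised members were Scg5, a chaperone of Pcsk2 with 377 to 596 FPKM in NG and 555 to 707 FPKM with drugs (0.42, SE 0.04), the granin Chgb with 4755 to 7497 FPKM and 6127 to 8650 FPKM (0.37, SE 0.06), Pam (0.20) and Cpe (0.08), which encode enzymes that finish peptide hormones.

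Of 19 measured transcription factors of β-cells, 6 were lowered and 1 raised, with a median of -0.10. Pdx1, which drives insulin transcription, had 102, 124 and 159 FPKM in NG and 86.2, 102 and 137 FPKM in HG + drugs (-0.28, SE 0.05, adjusted p = 8.9e-06 from limma), and Nkx2-2 had 28.6, 38.3 and 47.5 FPKM and 28.5, 32.2 and 36.0 FPKM (-0.25, SE 0.05). The libraries overlapped in both. Myt1 (-0.20), Isl1 (-0.14), Rfx6 (-0.14) and Foxa2 (-0.11) were also lowered, and Nkx6-1 (-0.06) and Neurod1 (-0.06) did not pass. Of 20 measured genes of glucose sensing and excitation, 5 were lowered and 3 raised. The lowered ones were both subunits of the ATP-sensitive potassium channel, Kcnj11 (-0.22, SE 0.06) and Abcc8 (-0.13, SE 0.03), the calcium channel subunits Cacnb2 (-0.22) and Cacna1d (-0.15), and Slc2a2, the main glucose transporter of rodent β-cells, with 419, 460 and 588 FPKM in NG and 324, 429 and 567 FPKM with drugs (-0.16, SE 0.06). G6pc, which turns glucose-6-phosphate back into glucose, had 0.736, 1.68 and 4.73 FPKM in NG and 0.203, 4.54 and 10.1 FPKM in HG + drugs, with library 1 lowest (0.88, SE 0.19, adjusted p = 2.6e-04 from limma, and 1.00 without library 1).

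Of 25 measured surface receptors, 10 were lowered and 4 raised (median -0.10). Glp1r, the receptor on which exendin-4 acts, had 76.7, 95.8 and 117 FPKM in NG and 63.7, 76.9 and 103 FPKM in HG + drugs. It was below the NG median in 17 of 19 drug libraries (-0.30, SE 0.05, adjusted p = 1.3e-06 from limma), although the groups overlapped, and the mean of Glp1r in HG was 74.5 FPKM. Gipr, the other incretin receptor gene, had 29.8, 49.8 and 92.9 FPKM and 21.9, 39.9 and 63.5 FPKM (-0.41, SE 0.12), and Crhr1, a receptor for corticotropin-releasing hormone and urocortins, had 34.2, 52.6 and 78.0 FPKM and 25.7, 33.9 and 53.4 FPKM (-0.54, SE 0.09). The dopamine receptor gene Drd2 (-0.31), the lipid receptor gene Gpr119 (-0.24) and the prolactin receptor gene Prlr (-0.22) were lowered too. The calcium-sensing receptor gene Casr rose from 0.257, 0.846 and 1.52 FPKM to 1.09, 1.79 and 3.54 FPKM (0.67, SE 0.08), at levels near 1 FPKM.

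Downstream of these receptors, 6 of 36 measured genes of cyclic AMP signalling and CREB targets were raised and 5 lowered. The adenylyl cyclase genes Adcy8 (2.09, 3.40 and 4.90 FPKM in NG against 1.57, 2.22 and 3.46 FPKM with drugs, -0.44, SE 0.07) and Adcy6 (-0.31) were lowered, as was the phosphodiesterase gene Pde3b (-0.21). Of the 7 other genes of enzymes that degrade cyclic AMP, 3 were raised. Pde4b rose from 2.35, 3.31 and 4.83 FPKM to 3.56, 5.17 and 6.28 FPKM (0.45, SE 0.06), Pde10a by 0.31 and Pde7a by 0.16, while Pde1c (-0.11), Pde4a (0.04), Pde4d (-0.20) and Pde8b (-0.01) did not pass. Prkar2b, a regulatory subunit of the cyclic AMP kinase, was raised by 0.25 (SE 0.04) and the catalytic subunit gene Prkaca was lowered by -0.14. Of the CREB target genes, Dusp1 (-0.23) was lowered. Nr4a1 (-0.29), Sik1 (-0.25), Fos (-0.20), Per1 (-0.17), Egr1 (-0.11), Nr4a2 (-0.03) and Jun (-0.00) did not pass the test. Neither did Ppargc1a (0.16), Rgs2 (0.03), Junb (0.03), Crem (0.03) and Irs2 (0.02). Of 25 measured genes of AMPK and energy regulation, 6 were raised and 0 lowered, with a median of -0.00 that turned to 0.00 under other settings, and none of the AMPK subunit genes Prkaa1 (-0.03), Prkaa2 (0.06), Prkab1 (-0.05), Prkab2 (-0.14), Prkag1 (-0.07) and Prkag2 (0.05) passed. The raised members were Acaca and Txnip, described with ChREBP, Arrdc4 (0.29), Sesn1 (0.20), Camkk1 (0.17) and Ulk1 (0.16), a kinase that starts autophagy.

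The NF-κB list was lowered in 11 of 24 measured members and raised in 2, with a median of -0.07. Nfkb2, which encodes the p100 subunit, had 1.26, 2.43 and 2.93 FPKM in NG and 0.588, 1.18 and 1.64 FPKM in HG + drugs (-0.54, SE 0.07, adjusted p = 4.7e-09 from limma) and a narrow overlap of the libraries. Il1r1, the receptor of interleukin-1, had 72.2, 86.2 and 113 FPKM and 51.5, 69.4 and 95.0 FPKM (-0.36, SE 0.06). Genes of inhibitors of NF-κB were lowered, Nfkbie by -0.29, Nfkbia by -0.28 (8.10 to 12.6 FPKM in NG, 6.18 to 9.37 FPKM with drugs) and Nfkbib by -0.24. Bcl3 (-0.30), Traf2 (-0.21) and Rela (-0.08) were lowered as well. Of the kinase genes, Chuk (0.04) and Ikbkb (0.02), which encode the kinases that act on the inhibitors, did not pass, whereas Tbk1 (-0.10) was lowered and Irak1 (0.09) raised. The mean of Nfkb2 in HG was 1.42 FPKM.

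The list of ChREBP, its partners and glucose-response targets had the highest median of the 24 lists with more than 2 measured members, 0.29, with 15 of 25 members raised and 4 lowered. ChREBP itself, listed as Mlxipl, was at 0.06 and did not pass, and its partner gene Mlx was lowered (-0.13). Txnip, an inhibitor of thioredoxin, had 79.2, 100 and 181 FPKM in NG and 77.5, 192 and 267 FPKM in HG + drugs, with library 1 lowest (0.81, SE 0.10, adjusted p = 7.4e-09 from limma, and 0.88 without library 1). Acaca, the acetyl-CoA carboxylase that commits carbon to fat, had 13.2, 16.7 and 19.3 FPKM and 21.8, 31.8 and 44.1 FPKM without overlap (0.88, SE 0.05, adjusted p = 6.2e-21). Tkt, the transketolase of the pentose phosphate pathway, had 138, 147 and 162 FPKM and 166, 198 and 237 FPKM (0.42, SE 0.03). Pklr, the pyruvate kinase of liver and β-cells, had 51.8, 59.2 and 75.3 FPKM and 48.6, 81.8 and 102 FPKM (0.35, SE 0.06), and Rgs16, another brake on G protein signalling, had 77.4, 105 and 139 FPKM and 84.7, 146 and 162 FPKM (0.41, SE 0.06). Ppp1r3b (0.55), a glycogen-targeting subunit, and Gpd1 (0.54), which makes glycerol phosphate, were raised, while the fructose-handling genes Khk (-0.39, SE 0.07) and Dak (-0.18) and the transporter gene Slc2a2 (-0.16) were lowered.

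ChREBP and its partner bind the carbohydrate response element, which resembles a pair of E-boxes. Its letters CANGNG, then any 5 bases, then CNCNTG, which read the same on both strands, were searched in RefSeq promoter windows of build GRCr8, from 250 bases before to 50 bases after the gene start. Of 16 list members with a window 2 held a match, Pklr and Rgs16, against 0.562% of all 33469 windows, 0.817% of the windows of raised genes and 0.542% of those of lowered ones. The matches are shown because both genes were raised, with the element in capitals. That of Pklr begins 168 bases before the gene start (GRCr8 chr2:176841090-176841119, plus strand). That of Rgs16 begins 12 bases before it and runs past the gene start (chr13:68438102-68438131, plus strand).
Pklr: gggcgcCACGGGGCACTCCCGTGgttcctg
Rgs16: agtagcCACGGGCCGGGCGCGTGctgctct
The other 14 members with a window had no match to these letters, which says nothing on binding elsewhere, and 5 of the 16 (31.2%) held the E-box CACGTG, against 6.42% of all windows, 9.76% of those of tested genes, 9.40% of those of raised genes and 11.3% of those of lowered ones. Of these 5, Arrdc4 was raised, Mlx was lowered, and Klf11, Fgf21 and Bhlhe40 were not called.

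Genes of fatty acid synthesis and storage, carriers and lipases included, were raised in 15 of 28 measured members and lowered in 0 (median 0.13). Beside Acaca and Fabp3, Fabp5, another fatty acid carrier, had 245, 298 and 345 FPKM in NG and 316, 477 and 668 FPKM in HG + drugs (0.66, SE 0.05, adjusted p = 2.1e-16 from limma), with overlap that came from library 1 alone, and G0s2, an inhibitor of lipolysis, had 29.9, 44.1 and 70.3 FPKM and 47.1, 88.3 and 135 FPKM (0.94, SE 0.12). Acly, which supplies acetyl-CoA in the cytosol, had 484, 562 and 607 FPKM and 537, 728 and 908 FPKM (0.35, SE 0.04). Fasn (0.20) and Scd1 (0.30), the synthase and the desaturase, were also raised, as was the lipid droplet coat gene Plin2 (0.25). Of 26 measured genes of cholesterol synthesis and uptake, 10 were raised, Idi1 (0.42), Pmvk (0.33) and Hmgcs1 (0.29) among them, and 2 lowered, Tm7sf2 (-0.30) and Abcg1 (-0.18). Mitochondrial fatty acid oxidation showed little, with 2 of 26 raised, Hadhb (0.15) and Hadha (0.07), and 3 lowered, Acaa2 (-0.28), Eci1 (-0.24) and Acadm (-0.15).

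Of 32 measured genes of glycolysis and the pentose phosphate pathway, 10 were raised and 2 lowered, Pgk1 (-0.11) and Pgls (-0.11). Pfkfb3, which makes the activator of phosphofructokinase, had 28.2, 48.1 and 58.4 FPKM in NG and 32.3, 61.0 and 74.9 FPKM in HG + drugs (0.30, SE 0.10), and Eno1 rose by 0.20 (0.08 and not called after quantile normalization). Pdhb, a subunit of pyruvate dehydrogenase, had 46.4, 52.9 and 80.7 FPKM and 46.9, 78.3 and 94.3 FPKM (0.48, SE 0.06, adjusted p = 4.8e-09 from limma), and Pdha1 was above its NG median in 19 of 19 drug libraries (0.16, SE 0.02). In the list of the TCA cycle and shuttles 10 of 39 were raised and 3 lowered, and Glud1, the glutamate dehydrogenase that lets amino acids feed insulin release, went from 90.8, 102 and 111 FPKM to 72.9, 83.0 and 97.9 FPKM (-0.27, SE 0.03, adjusted p = 1.6e-11). Of 34 measured nuclear genes of complex I, on which metformin acts, 8 were raised by at most 0.14 and Ndufv3 was lowered (-0.13).

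Glutathione and antioxidant enzymes were raised in 16 of 38 measured members and lowered in 1, Gstz1 (-0.25), with a median of 0.10. Gstm5, a glutathione transferase with close copies, had 10.6, 12.8 and 16.9 FPKM in NG and 19.1, 26.6 and 34.9 FPKM in HG + drugs (0.97, SE 0.05, adjusted p = 2.5e-22 from limma), without overlap and with the smallest adjusted p of the comparison. It stands in 2 identical entries. Gstm1 rose from 0.976, 2.26 and 4.27 FPKM to 2.11, 4.04 and 5.25 FPKM (0.63, SE 0.09), with overlap. Prdx4, a peroxiredoxin of the endoplasmic reticulum, had 48.8, 63.3 and 74.7 FPKM and 71.1, 80.0 and 86.3 FPKM (0.38, SE 0.04, above the NG median in 19 of 19 drug libraries). Gsta4 (0.55), Hmox1 (0.36) and Ggt1 (0.33) were raised, while the transcription factor gene Nfe2l2 (0.05) and the sensor gene Keap1 (-0.01) did not pass.

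Cytosolic ribosomal protein genes were raised in 57 of 76 members and lowered in 0, with a median of 0.12, but after quantile normalization 24 were raised and 5 lowered and the median was 0.03. Rps19 (0.24), Rps6 (0.21), Rpl39 (0.20) and Rpl22 (0.20) led the list. Each change was small. Rps23, for example, had 1059, 1211 and 1376 FPKM in NG and 1220, 1395 and 1543 FPKM in HG + drugs (0.18, SE 0.03), and ribosomal protein genes have many processed copies with which reads can be shared. Of 34 measured genes of the ATF4 response and tRNA synthetases, 14 were raised and 1 lowered. Asns, the asparagine synthetase that answers amino acid shortage, had 115, 140 and 160 FPKM and 145, 169 and 195 FPKM (0.30, SE 0.04), and Tars, which charges tRNA with threonine, had 27.7, 31.4 and 34.8 FPKM and 33.1, 37.1 and 41.8 FPKM (0.25, SE 0.03). The lowered member was the tryptophan counterpart Wars, with 96.6, 106 and 119 FPKM and 78.6, 88.3 and 96.7 FPKM (-0.27, SE 0.02, adjusted p = 2.8e-13 from limma). In the list of folding in the endoplasmic reticulum 8 of 33 were lowered and 1 raised. Ero1lb, the oxidase that helps proinsulin fold, had 25.1, 33.5 and 47.7 FPKM and 18.7, 26.0 and 36.2 FPKM (-0.34, SE 0.07), Sdf2l1 (-0.30) and the main chaperone gene Hspa5 (-0.10) were lowered, and the raised member was the disulfide isomerase gene P4hb (0.18, SE 0.02).

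Of 46 measured genes of DNA replication and G1/S, 13 were raised and 5 lowered. The cyclin genes parted, as Ccnd2 had 155, 176 and 201 FPKM in NG and 159, 204 and 249 FPKM in HG + drugs (0.25, SE 0.04), whereas Ccnd3 had 22.3, 29.4 and 36.4 FPKM and 17.5, 24.7 and 28.9 FPKM (-0.25, SE 0.05). The inhibitor genes Cdkn1a (0.30) and Cdkn1b (0.11) were raised and Cdkn2c (-0.21) was lowered. Of 44 measured genes of mitosis, 4 were raised, Cenpt, Cenpa, Cdc25b and Kif20a, by 0.11 to 0.18, and Mki67, the usual proliferation marker, was at 0.02. Without HG + drugs library 1, 9 mitosis genes were raised, and the count was also higher with the replicate number as a term in the fit. In the list of the Bcl2 family and caspases 4 of 27 were raised and 1 lowered, with a median of -0.02, and the other 22 did not pass. The share raised (14.8%) was near the 12.7% of all transcripts, and the share lowered (3.70%) was under their 14.6%. The list as a whole therefore did not stand out among the raised transcripts. Bmf, a promoter of cell death, had 0.881, 1.64 and 3.24 FPKM and 2.39, 3.55 and 5.42 FPKM (0.82, SE 0.09, adjusted p = 2.0e-11 from limma), and the survival gene Bcl2 had 1.98, 3.10 and 5.47 FPKM and 1.55, 2.06 and 3.57 FPKM (-0.37, SE 0.08). Apaf1 (0.14), which assembles the apoptosome, and Bak1 (0.16), which opens the outer mitochondrial membrane, were among the other raised members.

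Growth factors and cytokine receptors moved in both directions, with 7 of 31 measured members raised and 8 lowered. Beside Prok2, Lgals9 and Il17rb, Hbegf, a ligand of the EGF receptor, had 12.9, 19.3 and 29.6 FPKM in NG and 14.4, 33.8 and 49.0 FPKM in HG + drugs (0.71, SE 0.10), and the Wnt receptor gene Fzd1 went from 1.38, 1.91 and 2.54 FPKM to 2.47, 3.20 and 4.33 FPKM (0.52, SE 0.06, adjusted p = 3.5e-11 from limma), again overlapping only through library 1. The lowered ones included the gastrin gene Gast, with 1.52, 5.17 and 11.7 FPKM and 1.53, 3.41 and 6.00 FPKM (-0.66, SE 0.18), Igfbp3 (-0.40) and Fgfr3 (-0.34). Kitlg, the ligand of Kit, was at 0.26 in its main entry (adjusted p = 0.15) and at 0.61 when both entries were summed (adjusted p = 8.5e-12). Of 22 measured genes normally low in β-cells, 7 were raised and 3 lowered. S100a4 led them, Aldh1a1, a retinal dehydrogenase, had 3.84, 5.58 and 8.73 FPKM and 4.82, 8.80 and 11.6 FPKM (0.53, SE 0.09), and Slc16a1, a lactate transporter that β-cells suppress, rose by 0.35.

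Exocytosis genes were lowered in 13 of 33 measured members and raised in 4. Rab3a, a GTPase of docked granules, had 96.1, 107 and 113 FPKM in NG and 75.9, 86.4 and 96.7 FPKM in HG + drugs, so that the groups touched only at their edges (-0.31, SE 0.03, adjusted p = 4.7e-15 from limma). Rph3al (-0.25, SE 0.03), which works with Rab3 and Rab27, and Cplx2 (-0.21, SE 0.03), which clamps fusion, were below their NG medians in 19 of 19 drug libraries, and Rab3c (-0.27, SE 0.05) in 17 of 19. The Rab27 genes Rab27b (-0.42) and Rab27a (-0.26) were lowered. Of the fusion proteins, Stx1a (-0.12) and Vamp2 (-0.10) were lowered, while Snap25, with 52.3, 65.6 and 86.9 FPKM and 63.6, 73.4 and 87.5 FPKM in its main entry, was raised (0.18, SE 0.05).

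**Figure D4:**
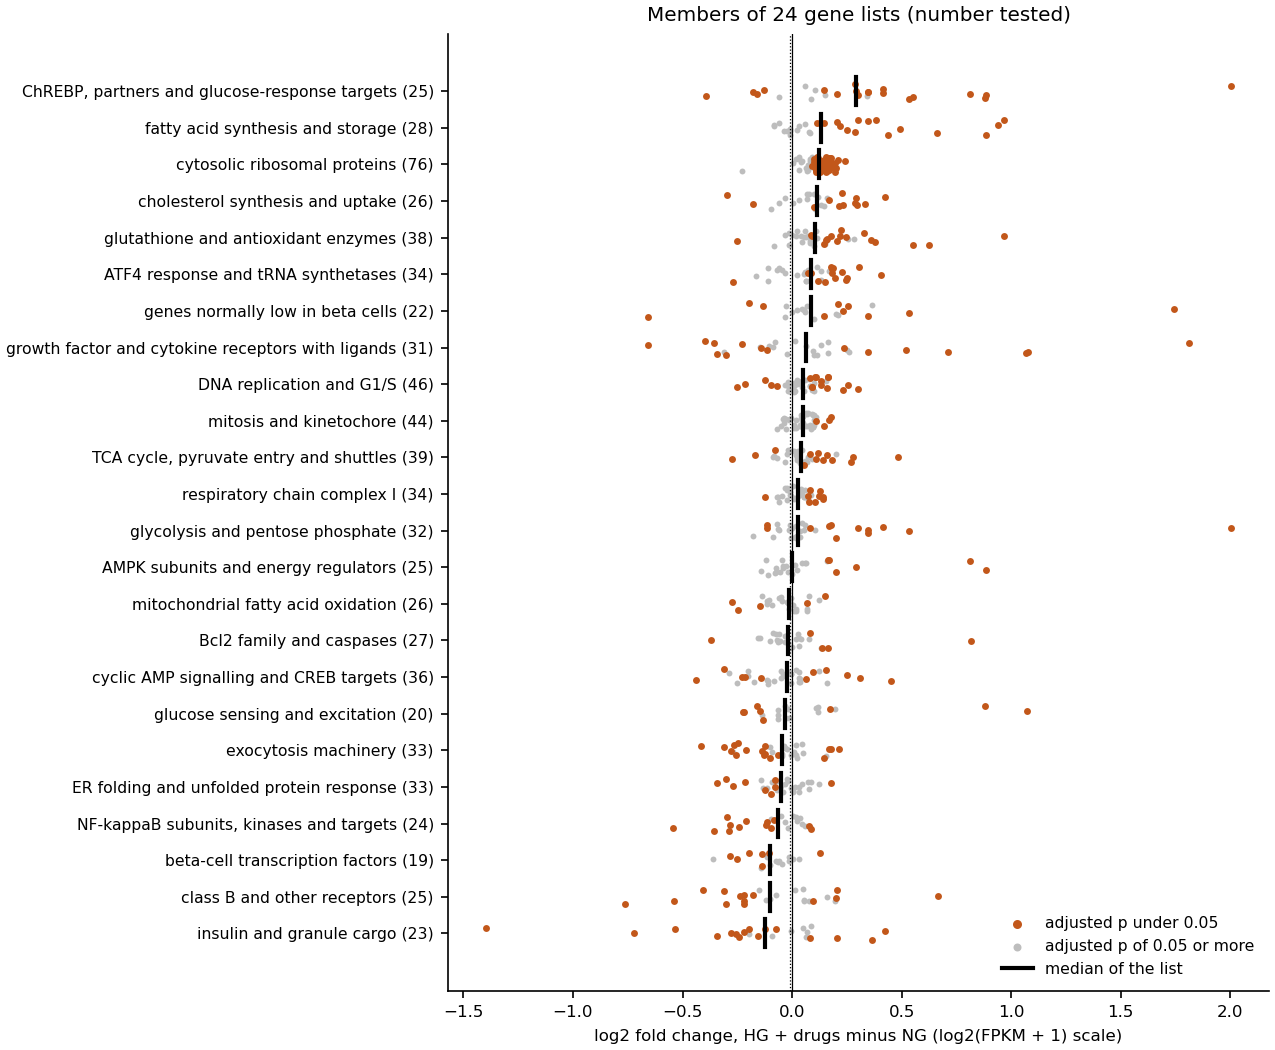
Log2 fold change of HG + drugs against NG (x axis, log2(FPKM + 1) scale) for the members of 24 gene lists ordered by their median, with the number of members tested in brackets, members past the test in orange and others in grey, black bars at list medians and a dotted line at the median of all transcripts (-0.01). The medians run from -0.13 for insulin and granule cargo to 0.29 for the ChREBP list, and that of ribosomal proteins is 0.12, or 0.03 after quantile normalization.

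What was new with drugs was sought in transcripts that differed from NG and from HG in the same direction, of which there were 72 (0.675% of those tested), 28 raised (0.263%) and 44 lowered (0.413%). Both comparisons use the same 19 drug libraries. With the replicate number as a term in the fit, more transcripts were found in either direction. In 65 of the 72, no difference between HG and NG was called. All changes of the raised ones were modest. Sat1, the enzyme that breaks down polyamines, had 9.81, 13.6 and 18.0 FPKM in NG and 10.3, 16.5 and 22.4 FPKM in HG + drugs, with a mean of 12.8 FPKM in HG, and its log2 fold changes were 0.29 against NG (SE 0.08, adjusted p = 0.0025 from limma) and 0.35 against HG (adjusted p = 0.0011). Tcn2, the transporter of vitamin B12 in blood, had 26.7, 32.8 and 42.4 FPKM in NG and 35.6, 42.9 and 50.4 FPKM with drugs, against a mean of 37.2 FPKM in HG (0.38 against NG, with 19 of 19 drug libraries above the NG median, and 0.20 against HG). Acsl6, an acyl-CoA synthetase, had 14.6, 17.7 and 21.5 FPKM and 18.9, 20.5 and 24.3 FPKM, against 18.3 FPKM in HG (0.21 and 0.18), and was also above the NG median in 19 of 19. Pls3, which bundles actin (0.21 and 0.31), Ffar3, a receptor for short-chain fatty acids (0.21 and 0.25), Rgs20 (0.27 and 0.30), C1ql4 (0.29 and 0.29), Fam213b (0.20 and 0.23), Hormad2 (0.18 and 0.22) and the lysosomal α-glucosidase gene Gaa (0.16 and 0.21) belong here, each with wide overlap between libraries. The NG medians of Rgs20 (1.32 FPKM) and C1ql4 (1.64 FPKM) were near 1 FPKM.

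Of the 44 lowered transcripts, Nnat, a small membrane protein of the endoplasmic reticulum that supports insulin release, had 149, 179 and 224 FPKM in NG and 96.8, 134 and 167 FPKM in HG + drugs, with 158 FPKM in HG (-0.45 against NG, SE 0.06, adjusted p = 8.5e-09 from limma, and -0.25 against HG). Its 4 entries summed to -0.39. Tfrc, the transferrin receptor that takes up iron, had 172, 231 and 286 FPKM and 139, 181 and 230 FPKM, with 213 FPKM in HG (-0.34 and -0.25), whereas the iron transporter gene Slc11a2 averaged 16.7 FPKM with drugs and 15.5 FPKM in HG. Dusp1, a phosphatase of MAP kinases, had 35.8, 39.9 and 62.4 FPKM and 28.9, 35.3 and 41.7 FPKM, with 42.7 FPKM in HG (-0.23 and -0.26). In each of these genes the groups overlapped. Crip2, a LIM domain protein, was higher in HG than in NG (0.21, adjusted p = 0.019) and lower with drugs than in NG (-0.20, SE 0.08, adjusted p = 0.037), with 12.1, 15.8 and 20.5 FPKM in NG and 9.30, 13.7 and 18.9 FPKM with drugs. Apom (-0.36 and -0.33), Spata2L (-0.32 and -0.30), Cbx8 (-0.21 and -0.21), Lrrc10b (-0.25 and -0.29), the cation channel gene Trpm2 (-0.26 and -0.17), the chloride cotransporter gene Slc12a2 (-0.22 and -0.20) and the keratin gene Krt8 (-0.20 and -0.15) were lowered as well. Of these, Apom had a low level, with an NG median of 1.37 FPKM. The calls of Crip2 and Lrrc10b and that of Fam213b were lost under some settings (adjusted p of up to 0.054, 0.099 and 0.062), and without the libraries of number 13 the count of raised transcripts was 50 instead of 28.

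**Figure D5:**
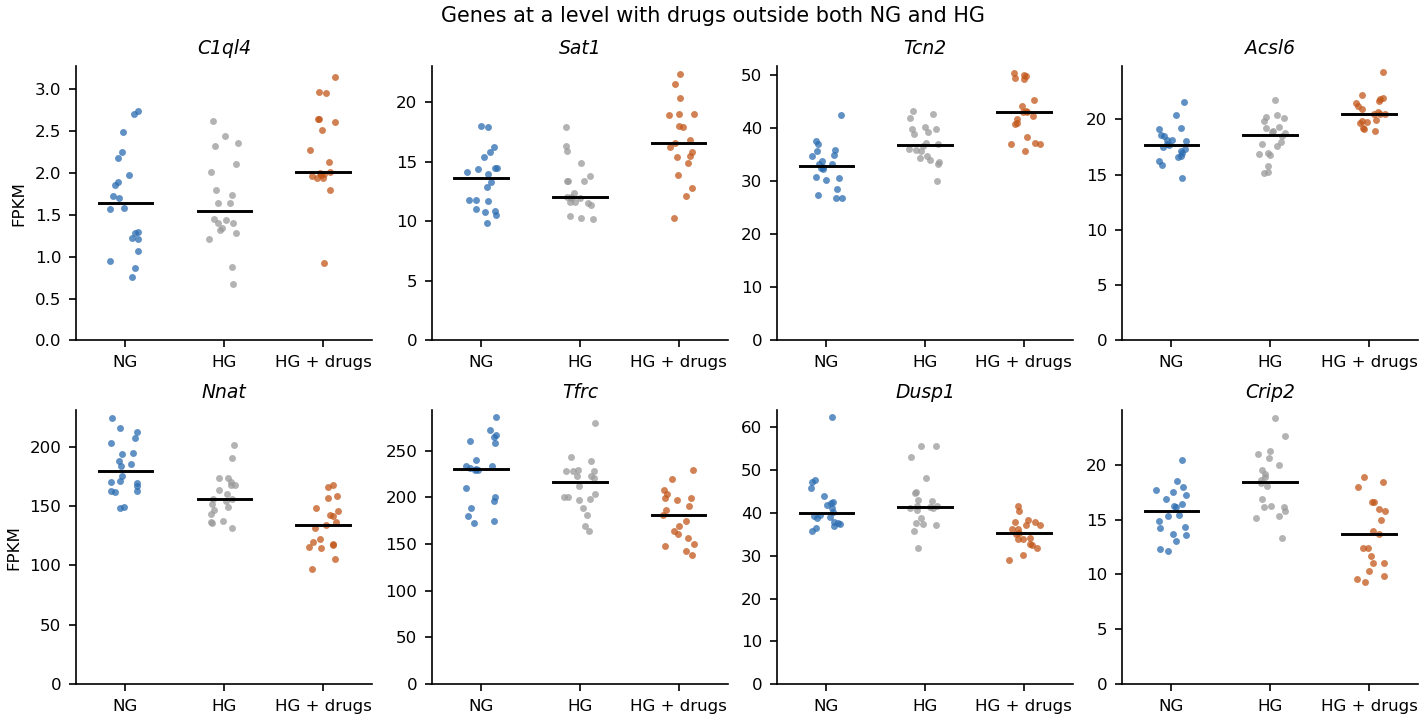
FPKM (y axes, linear and from 0) of 4 genes raised and 4 genes lowered with drugs beyond both other groups, one point per library, with NG in blue (n = 20), HG in grey (n = 20) and HG + drugs in orange (n = 19) and black lines at the medians. The point clouds overlap in every panel. Among the genes shown, the difference from NG is largest in Tcn2 (0.38) and Nnat (-0.45), and both differ less from HG than from NG.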

How the data were processed

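Per the labels and the paper's methods, libraries were made from total RNA with the Illumina TruSeq kit version 2. The authors checked reads with FastQC 1.0.0, aligned them to build rn5 in TopHat with Bowtie and estimated the deposited FPKM in Cufflinks for 18331 transcripts under 17031 symbols. A spreadsheet had turned 28 names into numbers, of which 27 were recovered. The depth was read from the spacing of low FPKM, since 85.6% of 76806 low values fell within 0.05 reads of a whole number.

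A transcript was tested if it averaged 1 FPKM or more in the 59 libraries. The test was limma 3.58.1 in R 4.3.3 on log2(FPKM + 1), trended and robust, with 3 groups in 1 fit, Benjamini-Hochberg adjustment and a threshold of 0.05. Each list member is the most abundant entry of its symbol. On simulated data for HG + drugs against NG with 10660 transcripts, 82%, 98%, 100% and 100% of 50 transcripts changed by 0.25, 0.5, 1 and 2 (log2) were recovered and 4 unchanged ones were called. Python 3.11.15, pandas 2.3.3, numpy 2.4.6 and matplotlib 3.10.9 were used.

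Named genes are the 10 largest rises and falls of at least 300 bases, the 8 clearest beyond both groups in each direction, the most significant members of each list (at most 4), and Ins1, Ins2, Iapp, Glp1r, Slc2a2, Pdx1, Ucn3 and Txnip. Other genes, the transcripts without overlap among them, were added after their values were seen. Members and lists were chosen with earlier results of these data known. Mafa and replicate 16 of HG + drugs are not analysed here, and some genes that the rule names are not reported here. Alternatives were other pseudocounts, filters, scalings and subsets of libraries, sets of 15 sample numbers as a term, FPKM summed per symbol and a replicate block.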

Additional observations from a re-analysis of the deposited data

How the results depend on the processing

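Over 14 other settings the number of changed transcripts was between 2450 (mean of at least 5 FPKM) and 4103 (replicate block), against 2910. Of 184 named transcripts past the test, 2531 of 2547 values kept direction and call, 12 lost the call and 4 reversed, Iapp at 0.0098 with quantile normalization and Gnas (-0.034), Ndrg4 (0.038) and Tceb1 (0.049) with FPKM summed per symbol. Raised transcripts beyond both groups numbered 118 with the replicate block and 50 without number 13 (28 otherwise), and lowered ones 152 with the block (44 otherwise). Without HG + drugs library 1 there were 37 transcripts wholly higher (17 otherwise). The settings without number 13 and without library 1 leave out libraries, and the cause of their counts was not tested. With NG and HG + drugs alone no count beyond both groups can be had. Raised transcripts made up 46.5% of calls, 50.5% with median-ratio scaling and 51.5% with a length trend removed, an alternative chosen after the data were seen, as was leaving out library 1.

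Neither labels nor methods say that equal replicate numbers share an experiment. For insulin secretion and apoptosis, the paper draws individual experiments as lines. Deviations of same-numbered NG and drug libraries correlated by over 0.1 in 11 of 19 pairs. Their median was 0.12, against -0.006 for libraries of different numbers. The numbers were not taken as pairs, and a weak pairing that the main test leaves out remains possible. A drug library was closest to the NG library of its own number in 4 of 19, more often than an even spread over the numbers would give. With the replicate block, 1836 transcripts were raised and 2267 lowered, 2907 of the 2910 calls among them, 16 of 26 cholesterol genes were raised (10 otherwise), 13 of 33 endoplasmic reticulum genes lowered (8) and 13 of 44 mitosis genes raised (4). Depth limits transcripts near 1 FPKM, which rest on few reads.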

Other observations

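Several transcripts outside the lists were far from NG with drugs, and all were named after their values were seen. Mrap2, an accessory protein of melanocortin receptors, had 2.98, 4.69 and 6.77 FPKM (lowest, median and highest) in NG and 5.81, 10.4 and 14.1 FPKM with drugs (a log2 change of 1.02, SE 0.08, adjusted p = 6.6e-16 from limma), and Rasgrp2, an activator of small G proteins, had 2.59, 3.32 and 5.69 FPKM and 3.68, 8.23 and 12.4 FPKM (1.00, SE 0.08). Adora2b, a receptor for adenosine, had 3.94, 5.67 and 9.22 FPKM and 7.82, 10.2 and 19.0 FPKM (0.86, SE 0.10), while P2ry1, the receptor for ADP, was lowered. Of genes of secreted proteins, Ambp, the precursor of the protease inhibitor bikunin, had 275, 356 and 474 FPKM and 424, 527 and 679 FPKM (0.55, SE 0.05) and Gas6, a ligand of TAM receptor kinases, had 49.0, 63.1 and 76.9 FPKM and 76.5, 92.3 and 104 FPKM (0.51, SE 0.05). Crabp1, which binds retinoic acid, rose from 63.1, 78.6 and 90.8 FPKM to 75.9, 136 and 200.3 FPKM (0.85, SE 0.06). The groups of Crabp1 and Rasgrp2 overlapped only through HG + drugs library 1. All 6 had a higher mean in HG than with drugs.

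Among the falls, the metallothionein gene Mt1a had 56.9, 102 and 143 FPKM in NG and 30.7, 60.5 and 140 FPKM in HG + drugs (-0.70, SE 0.14). Mt2A was at -0.46 and did not pass the test (adjusted p = 0.052 from limma). Car8, a protein related to carbonic anhydrases, had 45.3, 65.9 and 117 FPKM and 29.0, 42.0 and 62.1 FPKM (-0.67, SE 0.11). Psmb9, a subunit of the immunoproteasome, had 16.6, 20.6 and 34.0 FPKM and 11.7, 14.9 and 19.7 FPKM (-0.52, SE 0.07). Ass1, which feeds citrulline into arginine synthesis, had 11.7, 14.3 and 17.6 FPKM and 8.20, 10.2 and 12.7 FPKM (-0.47, SE 0.06). Gadd45b, a stress gene that NF-κB induces, had 5.31, 8.15 and 10.5 FPKM and 3.50, 5.07 and 6.63 FPKM (-0.56, SE 0.07) and was below the NG median in 19 of 19 drug libraries. Ass1, Psmb9 and Gadd45b had no difference called between HG and HG + drugs.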
